A study of Mus musculus with 9 samples.

Results

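Transcript levels of 10 genes for acyl-CoA thioesterases and amino acid N-acyltransferases were followed in mouse liver. The genes were Baat, Acnat1, Acnat2, Acot1, Acot2, Acot3, Acot4, Acot8, Acot12 and Acot13, and they were selected by symbol from the 23444 rows of each deposited table, with the higher Acnat2 level of aged livers already known. The age difference of Acnat2 is therefore a description of the gene that led to the choice. All 10 symbols were listed in all 9 libraries, and all 10 passed the filter on low values.

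RNA of whole liver came from C57Bl6 mice in 3 groups of 3 libraries. Aged mice of 20 to 22 months received PD-0332991 in their chow for 2 weeks, at an amount that the labels write as 450 mg/k. The second group were untreated mice of 20 to 22 months, and the third were untreated mice of 2 months. PD-0332991, or palbociclib, blocks CDK4 and CDK6, kinases that drive entry into S phase, and the series asks about Cdk4 in the hepatic steatosis of old age. The labels name no genetic alteration in any group and give no other age among treated mice, so the drug was studied in aged livers only. PD-0332991 and young livers therefore differ in both age and drug. Whether each library stands for its own mouse is not in the labels, and p-values here then reflect library-to-library spread, which may be technical. The deposited unit is TPM, a level per transcript length and per library, and the sequencing depth behind it is unknown.

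Fatty acids and bile acids are handled in the cell as thioesters of coenzyme A. Acyl-CoA thioesterases (Acot) cut this bond and release the free acid and coenzyme A, each in its own compartment, which opposes the acyl-CoA synthetases. Amino acid N-acyltransferases instead pass the acyl group to an amino acid. Baat conjugates bile acids with taurine or glycine before they are secreted into bile, and mouse Acnat1 conjugates fatty acids with taurine in peroxisomes. Acnat2 is the closest relative of Acnat1. Several Acot genes are known targets of PPAR-alpha, the fatty acid receptor that is active in the fasted liver.

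The genes lie in 2 clusters and 3 single places, given here on GRCm38 (mm10) from GENCODE M21. On the minus strand of chromosome 4, Acnat2 (chr4:49379840-49408151), Acnat1 (chr4:49447105-49473912) and Baat (chr4:49489422-49506557) follow each other with gaps of 39.0 and 15.5 kb. On the plus strand of chromosome 12 stand Acot2 (chr12:83987861-83993873), Acot1 (chr12:84009490-84018371), Acot4 (chr12:84038379-84048601) and Acot3 (chr12:84052144-84060402), with gaps of 15.6, 20.0 and 3.5 kb. Acot8 lies on the minus strand at chr2:164792765-164804882. Acot13 lies on the minus strand at chr13:24817948-24831540, and Acot12 on the plus strand at chr13:91741512-91786148.

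A pair of neighbours in each cluster, Acnat1 with Acnat2 and Acot1 with Acot2, are near-identical copies, so the sequences that tell them apart come first. The coding sequences of Acnat1 (416 codons) and Acnat2 (420 codons) were identical at 1200 of 1248 aligned bases, or 96.2%, and their longest identical run was 200 bases. Identity to Baat was 64.1% for Acnat1 and 63.6% for Acnat2. The coding sequences of Acot1 (419 codons) and Acot2 (453 codons) were identical at 1181 of 1236 aligned bases, or 95.6%. A further 144 bases stood against gaps, and the longest identical run was 273 bases. Over its aligned bases Acot1 was 84.0% identical to Acot3 and 75.5% to Acot4. The 60-base coding stretches below are those in which the copies differ at most positions, taken from GENCODE M21 transcripts and written 5′ to 3′ with the differing bases in capitals.
Acnat2, coding bases 822 to 881: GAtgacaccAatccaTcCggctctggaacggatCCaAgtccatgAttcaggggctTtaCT
Acnat1, coding bases 822 to 881: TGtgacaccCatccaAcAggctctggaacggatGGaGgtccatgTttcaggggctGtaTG
Acot1, coding bases 823 to 882: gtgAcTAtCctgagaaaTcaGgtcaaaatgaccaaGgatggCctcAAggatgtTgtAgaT
Acot2, coding bases 946 to 1005: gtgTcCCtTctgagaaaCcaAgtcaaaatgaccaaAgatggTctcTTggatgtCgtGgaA
The Acnat pair differed at 12 of these 60 bases and the Acot pair at 13. In other stretches of this length the copies cannot be told apart, as in the following bases, which both members of a pair carry without a difference.
Acnat2 and Acnat1, coding bases 11 to 70: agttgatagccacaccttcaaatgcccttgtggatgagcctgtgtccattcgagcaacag
Acot1 (coding bases 194 to 253) and Acot2 (317 to 376): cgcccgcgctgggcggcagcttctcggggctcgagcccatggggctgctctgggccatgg

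Levels were estimated with kallisto, which assigns reads by the short words of sequence that they hold, so the words that a gene shares with others were counted at 31 bases over all annotated transcripts and both strands. Of the Acnat2 words 62.2% occurred in no other gene and 37.1% also occurred in Acnat1. Of the Acnat1 words 68.8% occurred in no other gene and 30.0% also occurred in Acnat2. Acot2 had 62.2% of its words to itself and shared 29.9% with Acot1, of whose own words 77.2% were unique. Unique shares were 74.8% for Acot3, 82.1% for Acot4, 89.2% for Acot8 and 96.4% for Acot12, and 100% for Acot13 and Baat. Acot3 and Acot4 overlap the antisense gene 4732463B04Rik and the gene Gm49366, Acot8 overlaps Snx21 on the other strand, Acot12 overlaps the antisense gene 4833422C13Rik, and Acnat2 overlaps the pseudogene Gm12451. Strand use is not stated for these libraries, so reads of a gene and of its antisense partner cannot be told apart.

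**Figure D1:**
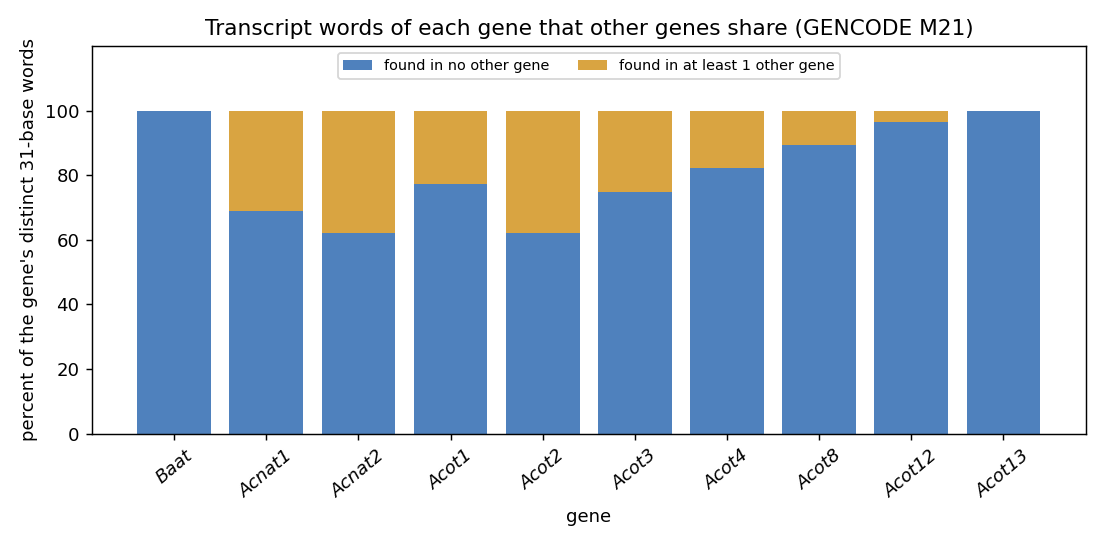
Percent of each gene's distinct 31-base words, over all its GENCODE M21 transcripts, that occur in no other gene (blue) or also in another gene (yellow). Acnat2 and Acot2 have the lowest unique share, 62.2% each, and Baat and Acot13 share no word with any gene.

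Baat had the highest level of the 10 genes, with a mean of 139 TPM over the 9 libraries, above 94.2% of the tested genes, and Acot13 followed with 68.7 TPM. Acnat2, Acot12, Acnat1, Acot8 and Acot1 had means of 26.3, 20.9, 17.1, 15.1 and 13.6 TPM, and Acot4 had 6.36 TPM. Acot2 (1.48 TPM) and Acot3 (1.05 TPM) were near the floor of 1 TPM that a gene had to reach in at least 3 libraries to be tested. In young livers Acot1 (16.4 ± 1.59 TPM), Acnat1 (16.4 ± 2.33 TPM) and Acot8 (15.3 ± 1.42 TPM) did not differ beyond their spread (SD, n = 3 each), and neither did Acot2 (1.35 ± 0.779 TPM) and Acot3 (0.868 ± 0.374 TPM). Baat held 44.9% ± 0.915 of the summed TPM of the 10 genes in PD-0332991 livers, 43.0% ± 3.55 in aged untreated livers and 46.7% ± 2.14 in young livers (SD, n = 3 each).

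**Figure D2:**
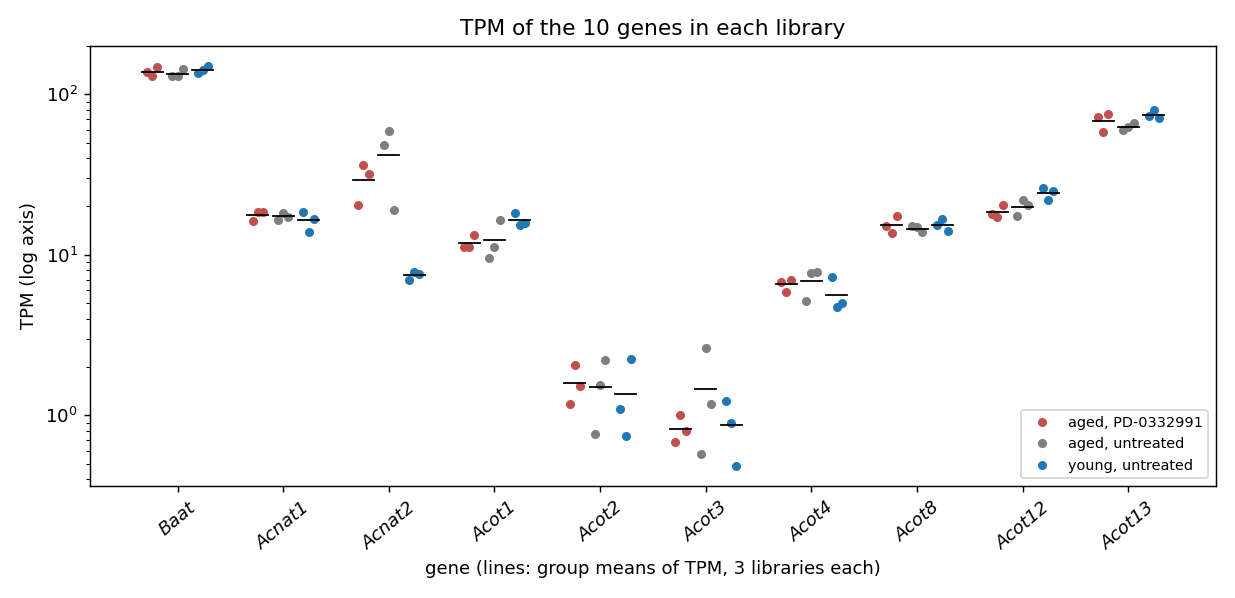
TPM of each gene in each of the 9 libraries on a log axis, with PD-0332991 livers (red), aged untreated livers (grey) and young livers (blue) from left to right within a gene, and a line at the mean of each group. Acnat2 lies between 18.9 and 59.4 TPM in the 6 aged livers and between 6.97 and 7.76 TPM in the 3 young livers, while the groups of Baat, Acnat1 and Acot8 lie on top of each other.

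Acnat2 was several-fold higher in both groups of aged livers than in young livers, and its near-identical neighbour Acnat1 and the third gene of the cluster, Baat, were at similar levels throughout. Acnat2 had 20.4, 36.1 and 31.8 TPM in PD-0332991 livers and 48.1, 59.4 and 18.9 TPM in aged untreated livers, against 6.97, 7.76 and 7.62 TPM in young livers, always in the order of libraries 1 to 3 here and for the genes that follow. Every aged library lay above every young one, and the treated and untreated aged groups overlapped, with aged untreated library 3 the lowest of the 6.

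In aged untreated against young livers the ratio of the Acnat2 means was 5.65, and the difference on the log2(TPM + 0.5) scale was 2.27 ± 0.40 (SE), a fold of 2.57 to 9.09 within its 95% confidence interval. The values differ more within the aged group (SD 20.9 TPM around a mean of 42.1 TPM) than within the young group (SD 0.420 TPM around 7.45 TPM, n = 3 each). In limma's fit over all 10161 tested genes Acnat2 stood at an adjusted p of 0.0447, just inside the threshold of 0.05. The call was lost when any of the 3 young libraries or aged untreated library 1 or 2 was left out (adjusted p between 0.0992 and 0.170), with differences between 1.95 and 2.30. Without aged untreated library 3 the difference was 2.76, with an adjusted p of 9.56e-05.

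In PD-0332991 against aged untreated livers the Acnat2 difference was -0.40 ± 0.40 on the log2 scale, with a 95% confidence interval of -1.31 to 0.51 and an adjusted p of 0.644. This comparison turned on aged untreated library 3. Without it Acnat2 was lower in PD-0332991 livers by a log2 difference of -0.89, with an adjusted p of 0.0405. Without aged untreated library 2 the difference was -0.08, with an adjusted p of 0.952.

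In PD-0332991 against young livers, which share the young libraries with the age comparison, Acnat2 was higher by 1.87 ± 0.40 on the log2 scale (95% confidence interval 0.96 to 2.79, adjusted p 0.0317 by limma). The call was lost without any of the 3 young libraries, without PD-0332991 library 2 and without PD-0332991 library 3 (adjusted p between 0.0735 and 0.115). The difference lay between 1.71 and 2.11 over all 6 fits with a library left out.

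**Figure D3:**
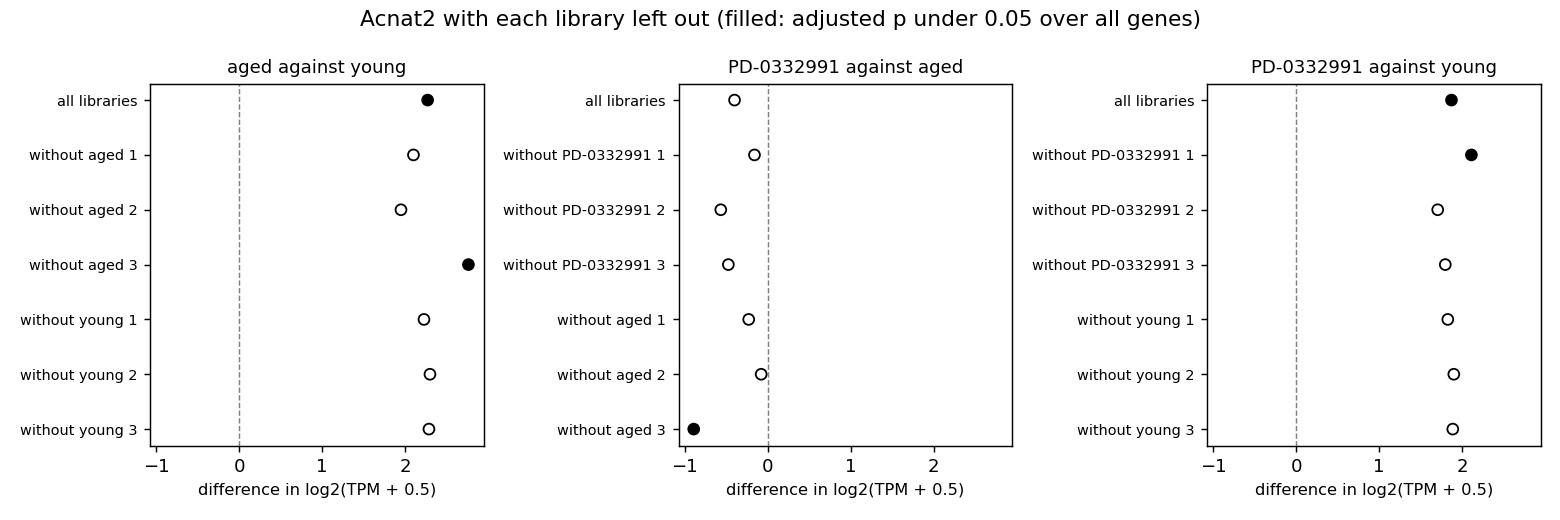
Difference of Acnat2 in log2(TPM + 0.5) between groups, with all libraries and with each library of the compared groups left out in turn, filled where the adjusted p over all genes is under 0.05. The age difference stays between 1.95 and 2.76, and the difference of PD-0332991 against aged untreated livers is called only without aged untreated library 3, at -0.89.

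Other transcripts also set aged untreated library 3 apart. Summed over the 11 listed genes of the circadian clock list, TPM was 103, 151 and 137 in PD-0332991 livers, 45.9, 45.0 and 103 in aged untreated livers, and 90.8, 88.5 and 72.0 in young livers. The summed TPM of the 7 feeding-state genes (Fasn and Pck1 among them) was 1119, 953 and 1277 in PD-0332991 livers, 666, 467 and 1118 in aged untreated livers, and 749, 585 and 898 in young livers. In both sums aged untreated library 3 was the highest of its group, and in Acnat2 it was the lowest. The acute-phase sum was 12770, 22810 and 11850 TPM in PD-0332991 livers, 21940, 4624 and 3570 TPM in aged untreated livers, and 2879, 7298 and 3111 TPM in young livers, so here aged untreated library 1 stood apart from its group. The part of any of these in the Acnat2 level was not tested.

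Acnat1 had 16.2, 18.4 and 18.5 TPM in PD-0332991 livers, 16.5, 18.2 and 17.3 TPM in aged untreated livers, and 18.6, 13.9 and 16.7 TPM in young livers. All 3 groups overlapped. Its log2 difference was 0.09 (95% confidence interval -0.17 to 0.35) in aged against young livers, 0.03 (-0.23 to 0.29) in PD-0332991 against aged livers and 0.12 (-0.14 to 0.38) in PD-0332991 against young livers, with adjusted p between 0.583 and 0.917.

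Baat had 137, 131 and 148 TPM in PD-0332991 livers, 131, 130.5 and 143 TPM in aged untreated livers, and 135, 142 and 150.4 TPM in young livers. The groups overlapped here too, and every one of its 3 confidence intervals lay within 0.28 of 0 on the log2 scale, the narrowest of the 10 genes.

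The balance of the copies differed between aged and young livers in every library. Acnat2 made up 55.7%, 66.2% and 63.2% of the summed Acnat1 and Acnat2 TPM in PD-0332991 livers and 74.4%, 76.5% and 52.3% in aged untreated livers, against 27.3%, 35.8% and 31.4% in young livers. The young libraries lay below all 6 aged ones. The log2 ratio of Acnat2 to Acnat1 averaged 1.11 in aged untreated and -1.08 in young livers, a difference of 2.19, and the difference was 1.76 for PD-0332991 against young livers. For PD-0332991 against aged untreated livers the difference was -0.43. These ratios, and those to Baat (2.35 for aged against young and 1.91 for PD-0332991 against young livers), were picked after the levels had been seen and are given without a test.

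Because the copies share sequence, they were also summed before the fit. The summed Acnat1 and Acnat2 level was 36.6, 54.6 and 50.3 TPM in PD-0332991 livers and 64.6, 77.6 and 36.2 TPM in aged untreated livers, against 25.6, 21.7 and 24.3 TPM in young livers. The groups of aged livers again lay above the young group without overlap. The sum differed by 1.23 ± 0.26 on the log2 scale between aged and young livers and by 0.95 ± 0.26 between PD-0332991 and young livers, and neither passed the threshold (adjusted p 0.0595 and 0.0555).

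Other tested genes within 500 kb of the Acnat2 start included Mrpl50, a mitochondrial ribosomal protein gene, the zinc finger gene Zfp189 and the ubiquitin ligase gene Rnf20. Their log2 differences in aged against young livers were -0.03, -0.12 and 0.27, with adjusted p between 0.415 and 0.943. None of these 3 was called in any comparison.

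**Figure D4:**
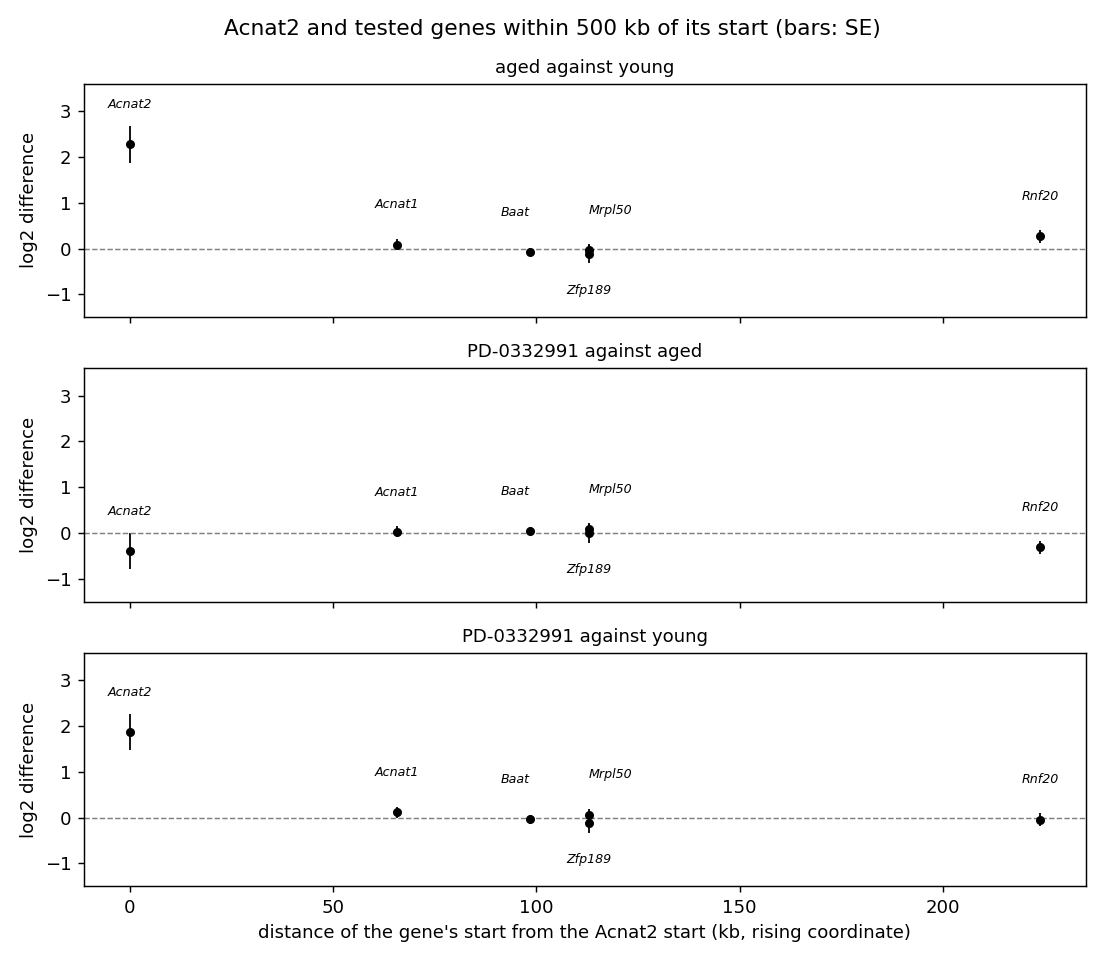
Difference in log2(TPM + 0.5), with its SE, of Acnat2, Acnat1, Baat, Mrpl50, Zfp189 and Rnf20, all within 500 kb of the Acnat2 start, against the distance of each gene's start from it in kb, in the 3 comparisons. Acnat2 stands at 2.27 in aged against young and 1.87 in PD-0332991 against young livers, and the other genes plotted lie between -0.31 and 0.27 in all 3.

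Among the cytosolic thioesterases, Acot1 and Acot12 had lower means in both groups of aged livers than in young livers, and neither passed the threshold in any of the 3 comparisons. Acot1 releases long-chain fatty acids from their thioesters and had 11.2, 11.1 and 13.3 TPM in PD-0332991 livers, 9.56, 11.2 and 16.4 TPM in aged untreated livers, and 18.2, 15.3 and 15.7 TPM in young livers. All treated libraries lay below all young ones, and aged untreated library 3 lay within the young range. The log2 difference was -0.42 ± 0.17 in aged against young livers (adjusted p 0.28) and -0.45 ± 0.17 in PD-0332991 against young livers (adjusted p 0.136). Without aged untreated library 3 the age difference was -0.63 and passed the threshold, with an adjusted p of 0.0149. Without library 1 or library 2 of that group it was -0.26 and -0.37 (adjusted p 0.616 and 0.473). Leaving out a young library gave no call either (adjusted p between 0.338 and 0.573). Between PD-0332991 and aged untreated livers the Acot1 difference was -0.02 (95% confidence interval -0.40 to 0.35).

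Acot12, which hydrolyses acetyl-CoA, had 17.9, 17.1 and 20.6 TPM in PD-0332991 livers, 17.6, 21.9 and 20.3 TPM in aged untreated livers, and 26.0, 22.1 and 25.0 TPM in young livers. Neither aged group overlapped the young group, although aged untreated library 2 and young library 2 were only 21.9 against 22.1 TPM. The difference was -0.28 ± 0.12 in aged against young livers (adjusted p 0.287), -0.39 ± 0.12 in PD-0332991 against young livers (adjusted p 0.0708) and -0.10 ± 0.12 in PD-0332991 against aged livers. With only the 6 libraries of PD-0332991 and young livers in the fit, both Acot12 (adjusted p 0.0416) and Acot1 (0.0287) passed the threshold. Each was called in 2 of 15 alternative fits of this comparison, the other being that with array weights. The adjusted p reached 0.224 for Acot12 and 0.331 for Acot1 among the 15.

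The mitochondrial thioesterases were Acot2, a matrix enzyme, and Acot13, which is associated with mitochondria and binds the phosphatidylcholine transfer protein. Acot13 had 72.0, 58.1 and 75.7 TPM in PD-0332991 livers, 60.4, 62.2 and 66.0 TPM in aged untreated livers, and 73.2, 79.7 and 70.7 TPM in young livers. The aged untreated libraries lay below the young ones, and the PD-0332991 libraries overlapped both groups. The difference was -0.24 ± 0.11 in aged against young livers (adjusted p 0.337), 0.12 ± 0.11 in PD-0332991 against aged livers and -0.13 ± 0.11 in PD-0332991 against young livers.

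Acot2 ranged from 1.18 to 2.07 TPM in PD-0332991 livers, from 0.764 to 2.20 TPM in aged untreated livers and from 0.738 to 2.23 TPM in young livers. Its SD within the young group was 57.6% of the mean. At this level none of its differences, from 0.11 to 0.23 on the log2 scale, was distinguishable from 0. Acot2 made up 11.8% ± 3.37 of the summed Acot1 and Acot2 TPM in PD-0332991 livers, 10.5% ± 2.66 in aged untreated livers and 7.57% ± 4.26 in young livers (SD, n = 3 each), so Acot1 made up most of the sum. The log2 difference of that sum in aged against young livers was -0.38 (adjusted p 0.351).

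The peroxisomal thioesterases Acot8, Acot4 and Acot3 completed the set. Acot8, which acts on a broad range of acyl-CoAs and on bile acid thioesters, had 15.0, 13.7 and 17.5 TPM in PD-0332991 livers, 15.0, 14.8 and 13.9 TPM in aged untreated livers, and 15.2, 16.8 and 14.0 TPM in young livers. All 3 groups overlapped, and the confidence intervals of its differences reached no further than 0.32 from 0.

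Acot4, which in mouse cuts succinyl-CoA, had 6.77, 5.88 and 6.96 TPM in PD-0332991 livers, 5.18, 7.67 and 7.85 TPM in aged untreated livers, and 7.23, 4.71 and 4.97 TPM in young livers. Acot3, which in mouse acts on long-chain acyl-CoAs, ranged from 0.680 to 0.999 TPM in PD-0332991 livers, from 0.569 to 2.63 TPM in aged untreated livers and from 0.485 to 1.23 TPM in young livers. Both genes overlapped between all groups. The age differences were 0.27 ± 0.19 for Acot4 (adjusted p 0.53) and 0.42 ± 0.35 for Acot3 (adjusted p 0.62), and in PD-0332991 against aged livers they were -0.05 ± 0.19 and -0.43 ± 0.35. Summed, the pair differed by 0.33 on the log2 scale between aged and young livers (adjusted p 0.498).

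**Figure D5:**
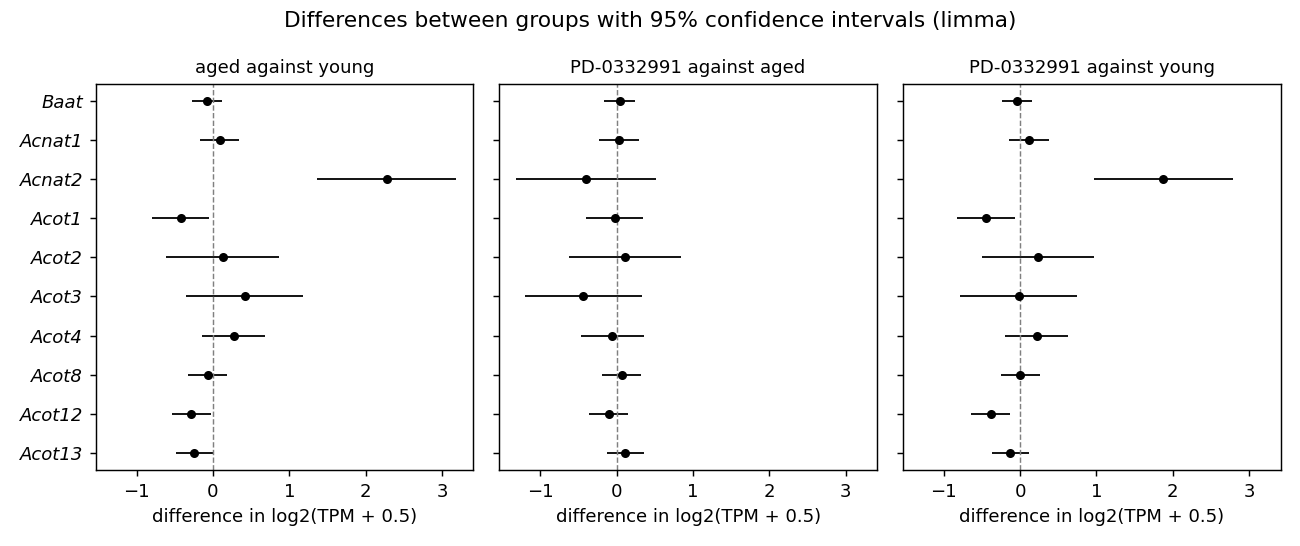
Difference in log2(TPM + 0.5) with its 95% confidence interval for each gene in the 3 comparisons. Acnat2 stands at 2.27 in aged against young and 1.87 in PD-0332991 against young livers, and no other gene lies beyond 0.45 in size.

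Of the 10 genes, 1 was called in aged against young livers, where 1.10% of all tested genes were called, and that gene was Acnat2, whose difference had led to the choice. In PD-0332991 against aged livers 0 of 10 were called by limma, against 1.45% of all genes. There 0 of 10 had an unadjusted limma p under 0.05, against 1854 of all 10161 tested genes. With age 3 of 10 had one, against 1523 of all genes. In PD-0332991 against young livers 3 of 10 had one, against 2524 of all genes. Acnat2 was again the 1 gene called in PD-0332991 against young livers, against 6.88% of all genes. No overlap between the groups was found for 3 of 10 genes in aged against young livers (18.4% of all genes), 0 of 10 in PD-0332991 against aged livers (22.4%) and 3 of 10 in PD-0332991 against young livers (33.9%). The 3 were Acnat2, higher, with Acot12 and Acot13, lower, in the age comparison, and Acnat2, higher, with Acot1 and Acot12, lower, in PD-0332991 against young livers. The median log2 difference of the 10 genes was 0.01 in aged against young livers (-0.01 over all genes), and 0.00 in PD-0332991 against aged livers (-0.09). In PD-0332991 against young livers it was -0.01 (-0.10 over all genes), both as deposited. Scaling by the median of ratios between libraries moved the all-gene median there to 0.02. All 10 genes moved up under that scaling as well, such as Baat from -0.04 to 0.09 and Acot12 from -0.39 to -0.26. The 0.02 is therefore not to be set against the -0.01. Without regard to sign, the median size of the difference was 0.26 against 0.15 over all genes with age, and 0.09 against 0.16 with the drug. In PD-0332991 against young livers it was 0.17 against 0.19. These medians take in Acnat2, whose difference had led to the choice, and Acot2 and Acot3, which were near the floor.

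For the members at 5 TPM or more, the genes with the most similar profile over the 9 libraries were looked up by Pearson's r of log2(TPM + 0.5), as a description without a test, since the 9 libraries share 3 groups. Acnat2 was closest to Trim8, a ubiquitin ligase gene (r = 0.97), to Pgs1, a phosphatidylglycerol phosphate synthase gene (0.97), and to the glutamate transporter gene Slc1a2 (0.96). Trim8 averaged 12.1 TPM in PD-0332991, 12.7 TPM in aged untreated and 8.64 TPM in young livers. Acot12 was closest to Klhdc8b (0.97), Abca8a (0.95) and Slc17a8 (0.95). Acot1 was closest to Mtrf1 (0.96), Pcsk4 (0.96) and Sox12 (0.95). The best partners reached 0.96 for Acot13 (Rqcd1), 0.93 for Baat (Rala), 0.90 for Acnat1 (Upf3a), 0.90 for Acot4 (Synpo) and 0.86 for Acot8 (Ttll5).

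The genes around these enzymes changed in other places. Among the other N-acyltransferases, 3 of 4 were tested, and Keg1, a relative of the glycine N-acyltransferase gene Glyat, was lower in aged against young livers, at 119 ± 14.9 TPM against 189 ± 18.5 TPM (SD, n = 3 each, adjusted p 0.0288). Treated livers were lower than young ones in both Keg1 (125 ± 11.5 TPM in PD-0332991 livers, adjusted p 0.0166) and Gm4952 (38.6 ± 5.92 against 70.3 ± 11.0 TPM, adjusted p 0.027). Glyat itself was not called, with 236 TPM in PD-0332991, 200 TPM in aged untreated and 232 TPM in young livers. Of the other thioesterase genes (Acot5, Acot6, Acot7, Acot9, Acot10, Acot11, Them4 and Them5) 3 of 8 were tested and none was called in any comparison. Acot5 was listed at 0 in all libraries. So was the hepatocyte gene Alb, so a listed 0 in these data need not mean that a transcript was absent.

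Of the acyl-CoA synthetase genes, which make the substrates of both enzyme classes, 13 of 16 were tested. Acsm3, for medium-chain acids, was lower in aged than in young livers, at 23.9 ± 2.79 TPM against 36.4 ± 1.69 TPM (adjusted p 0.05, rounded up from just below the threshold). Against young livers 3 were lower in PD-0332991 livers, with log2 differences of -0.71 for Acsm3 (adjusted p 0.0102), -0.73 for Acsm5 (0.0115) and -0.50 for Acsl1 (0.0353), and the last call was lost under both other scalings. None was called in PD-0332991 against aged livers. Slc27a5, which joins bile acids to coenzyme A ahead of Baat, was at 394 ± 14.0 TPM in PD-0332991, 430 ± 13.3 TPM in aged untreated and 399.5 ± 16.7 TPM in young livers (SD, n = 3 each) and was not called in any comparison.

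Among 23 tested genes of peroxisomal oxidation and import, none was called in aged against young or PD-0332991 against aged livers, and 5 were lower in PD-0332991 against young livers. These were Decr2, a peroxisomal dienoyl-CoA reductase (log2 difference -0.61, adjusted p 0.00949), Ehhadh, the bifunctional enzyme (-0.72, 0.00959), the oxidase gene Acox3 (-0.53, 0.0214), the transporter gene Abcd3 and the oxidase gene Acox2. The median over the list was -0.32 there, against -0.10 over all genes, and -0.20 against 0.02 under the median-of-ratios scaling, which left 4 called. None of the 12 genes of coenzyme A synthesis and breakdown was called in any comparison with TPM as deposited, and Nudt7, a hydrolase of coenzyme A, was called lower in PD-0332991 against young livers after quantile normalization alone (adjusted p 0.0754 as deposited).

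The list of PPAR-alpha and its targets held calls with the drug. Of its 27 tested genes 4 were higher in PD-0332991 against aged livers, and none was lower. Angptl4, an inhibitor of lipoprotein lipase, had 121 ± 13.1 against 39.0 ± 6.38 TPM (log2 difference 1.63, adjusted p 0.00961), and Plin2, a lipid droplet coat gene, had 417 ± 64.1 against 209 ± 42.6 TPM (adjusted p 0.0156). Ppara itself had 20.7 ± 1.43 against 11.2 ± 2.29 TPM (0.88, 0.0159), and Cpt1a, the gate of fatty acid import into mitochondria, had 50.5 ± 2.51 against 32.8 ± 1.89 TPM (0.62, 0.0159; SD, n = 3 each). Ppara was also the only gene of the list called in aged against young livers, with 11.2 ± 2.29 against 20.1 ± 0.989 TPM (-0.84, adjusted p 0.0144). Acot1, among the known targets of this receptor, differed by -0.02 between PD-0332991 and aged livers, and Cyp4a14, another target, had 176 ± 39.9 against 252 ± 59.8 TPM (-0.51, adjusted p 0.195). Against young livers, 2 of the 27 were higher and 4 lower in PD-0332991 livers as deposited, and 4 were higher and 2 lower under the median-of-ratios scaling. The 3 with the smallest adjusted p there were Ehhadh, the retinol saturase gene Retsat (-0.63, 0.0115) and the fatty acid transporter gene Cd36 (0.96, 0.015).

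Of 18 genes of bile acid synthesis, conjugation and transport, the pathway in which Baat takes the last step, none was called in aged against young or PD-0332991 against aged livers, where Cyp7a1 alone was called under the median-of-ratios scaling. As deposited, Cyp7a1 had 3.64 ± 0.793 TPM in PD-0332991 and 21.05 ± 8.58 TPM in aged untreated livers (log2 difference -2.32, adjusted p 0.0504). Against young livers, PD-0332991 livers had 2 higher and 4 lower, or 2 and 2 under that scaling. Cyp7a1, the rate-limiting enzyme, had 3.64 ± 0.793 against 27.4 ± 17.4 TPM (log2 difference -2.60, adjusted p 0.0155), and Slc6a6, the taurine transporter, had 6.13 ± 0.824 against 11.3 ± 1.63 TPM (-0.82, 0.0158). Cyp7b1, of the alternative pathway, had 253 ± 20.3 against 125 ± 46.0 TPM (1.07, 0.019; SD, n = 3 each). Among the 7 tested nuclear receptors and partners, Nr0b2, a repressor that bile acids induce, was higher in PD-0332991 against young livers (1.23, adjusted p 0.0475), and Ppara was the single call in each of the 2 other comparisons. Nr0b2 averaged 43.2 TPM in PD-0332991, 45.3 TPM in aged untreated and 18.15 TPM in young livers. Its log2 difference between PD-0332991 and aged untreated livers was 0.06 (adjusted p 0.944).

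The tissue label was checked against markers. The hepatocyte genes Apoa1, Ttr, Cyp3a11, Ass1 and Cps1 summed to between 18880 and 24350 TPM per library, while Alb, the albumin gene, was listed at 0 in all 9. Of these Ttr was called, lower in PD-0332991 against young livers (log2 difference -0.41, adjusted p 0.0357). The listed genes of a library held between 53.1% and 57.6% of the full TPM scale, so not every quantified transcript is in the tables. Neutrophil markers (3 of 5 tested, with Ly6g not listed) had sums of 23.9 to 33.4 TPM in PD-0332991, 8.09 to 24.9 TPM in aged untreated and 2.61 to 3.55 TPM in young livers, and all 3 tested were higher in PD-0332991 against young livers. Kupffer cell markers (4 of 5 tested) had sums of 43.1 to 47.7 TPM in PD-0332991, 51.4 to 72.4 TPM in aged untreated and 57.6 to 91.4 TPM in young livers, with 3 called lower in PD-0332991 against young livers. Sox9, the only tested cholangiocyte marker, was higher in aged than in young livers (1.70 ± 0.397 against 0.577 ± 0.175 TPM, adjusted p 0.0328). The untested Krt19 (0.428 against 1.15 TPM), Krt7 (0.205 against 0.586 TPM) and Epcam (0.2015 against 0.336 TPM) went the other way, and Cftr was barely present. Lyve1, a sinusoidal endothelial marker, was lower in aged than in young livers (0.643 ± 0.417 against 2.07 ± 0.489 TPM, SD, n = 3 each, adjusted p 0.0449). The rest of its list was not called, with log2 differences of -0.09 for Stab2, -0.05 for Pecam1, 0.04 for Clec4g and -0.03 for Kdr. Cholangiocyte, lymphocyte and adipocyte lists each had 1 tested gene and sums of at most 7.77 TPM in any library. In bulk liver, fewer cells of a type and less RNA per cell cannot be told apart, and the part of these shifts in the Acnat2, Acot1 and Acot12 differences was not tested.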

How the data were processed

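RNA-seq of mouse liver was analysed in 9 libraries, 3 per group, grouped and numbered by the titles in the labels. Per the labels, RNA was made into paired-end TruSeq libraries, and the submitters' processing notes name kallisto and the build mm10. For the kallisto version, the annotation and the summing to genes, the sources are silent (not given in the sources used here). Each library has 1 table of TPM that the authors deposited, which keeps no depth, so no counting interval can be given. Rows whose symbol had become a repeated date were left out (4 of 23444).

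From these, log2(TPM + 0.5) was computed and the 10161 genes that reached 1 TPM in 3 or more libraries were tested. A single fit took all 9 libraries with group as the only term (limma 3.58.1, R 4.3.3, intensity trend and robust variance, two-sided), with Benjamini-Hochberg adjustment over all tested genes and a threshold of 0.05. Confidence intervals are at 95%. The scale understates changes of low genes. The fit was tested on simulated data. The members and gene lists were chosen with earlier results of these data known. Genes were named by a rule: all members, the called genes of each pathway list (the 3 with the smallest adjusted p where more were called), and Ppara, Cpt1a, Cyp4a14 and Slc27a5. Values of 1 further gene under this rule are left out here. Gene models and coding sequences came from GENCODE M21, aligned with Biopython 1.88 (match 2, mismatch -1, gap open -5, gap extension -1). Alternatives were the pseudocount, the filter, scaling, weights, replicate block, the libraries fitted, and summing of Acnat1 with Acnat2, Acot1 with Acot2 and Acot3 with Acot4.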

Additional observations from a re-analysis of the deposited data

How the results depend on the processing

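Of 442 member differences recomputed under the alternatives, 387 kept their direction and their side of the threshold, 13 lost the call, 7 gained one and 35 changed sign, the last all among differences that were not called. Counts of genes called were 112 for aged against young, 147 for PD-0332991 against aged and 699 for PD-0332991 against young livers, as analysed. They were 62 and 29 in the first and second without the filter on low values, and 490, 271 and 1354 with array weights. With only the compared groups in the fit they were 49, 35 and 1293, and with a library left out they ran from 16 to 696, from 7 to 392 and from 153 to 475. The highest age count, 696, and the highest drug count, 392, came without aged untreated library 3. Splits of calls moved with scaling: PD-0332991 against aged livers had 62 higher and 85 lower as deposited, 88 and 56 after quantile normalization, and 118 and 53 after median-of-ratios scaling. The PD-0332991 against young split was 263 and 436, 308 and 310, and 387 and 224 in the same order. Correlations of deviations from the group means ran from -0.22 to 0.17 for same-numbered libraries and from -0.22 to 0.23 for other-numbered ones. They gave no sign that the replicate numbers pair the libraries but cannot exclude it. The fit with the replicate block called 91, 60 and 492 genes and, of the members, 0, 0 and 1.

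Members called in aged against young livers were 0 with quantile normalization (Acnat2 adjusted p 0.0501), with the block (0.0523), with only the compared groups (0.0937) and with Acnat1 and Acnat2, Acot1 and Acot2, and Acot3 and Acot4 summed, 2 with array weights (Acnat2 and Acot1), and 0 to 2 with a library left out. In PD-0332991 against aged livers they were 0 to 1 with a library left out. In PD-0332991 against young livers they were 3 with array weights and with only the compared groups (Acnat2, Acot1 and Acot12), 0 with these gene pairs summed, and 0 to 1 with a library left out. At a filter of 5 TPM, Acot2 and Acot3 were not tested.

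Signs turned as follows, with no cause tested. Quantile normalization gave 0.0525 for Acot1 and 0.0514 for Acot4 in PD-0332991 against aged, and 0.18 for Acot3 in PD-0332991 against young livers. Median-of-ratios scaling gave 0.0781, 0.0452 and 0.0018 for Acot1, Acot4 and Acot12 in PD-0332991 against aged, and 0.0629, 4e-04 and 0.0873 for Acot3, Acot13 and Baat in PD-0332991 against young livers. Array weights gave -0.11 for Acot2 in aged against young, and 0.15 and 0.0825 for Acot1 and Acot4 in PD-0332991 against aged livers. With a library left out, aged against young livers differed by -0.0227 to 0.178 in Acnat1 and by -0.125 to 0.446 in Acot2. For PD-0332991 against aged livers the ranges were -0.0029 to 0.0915 in Acnat1, -0.185 to 0.188 in Acot1, -0.192 to 0.356 in Acot2, -0.234 to 0.0442 in Acot4, -0.0228 to 0.149 in Acot8 and -0.009 to 0.0838 in Baat. For PD-0332991 against young livers they were -0.0187 to 0.552 in Acot2, -0.234 to 0.173 in Acot3, -0.0916 to 0.0805 in Acot8 and -0.0883 to 0.0011 in Baat.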
